A study of Homo sapiens with 9 samples.

Results

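The FANC genes are a family named for Fanconi anaemia, which inherited defects in most of its members cause. It is a disease of bone marrow failure and cancer risk with cells that cannot tolerate DNA interstrand crosslinks. Of 60708 gene rows in the count table, 10 mapped by Ensembl gene ID to a listed symbol, namely FANCA, FANCB, FANCC, FANCD2, FANCE, FANCF, FANCG, FANCI, FANCL and FANCM, and all 10 passed the filter on low counts. RNA came from MDA-MB-231, a human triple-negative breast cancer cell line, in 3 groups of 3 libraries. Cells of the PdB group received 10 nM pladienolide B, a macrolide inhibitor of the SF3B splicing complex, for 16 h. Cells of the recovery group were collected 24 h after PdB, and cells of the DMSO group received the vehicle. The labels give no time for DMSO and name no vehicle group matched to recovery. Comparisons with recovery therefore cannot tell removal of the drug apart from time in culture. No genetic change was made in any group, and the labels name 1 cell line and do not say whether the replicates were separate cultures, so p-values measure the spread between these libraries, which may be technical.

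In the pathway, FANCM anchors a multi-subunit core complex at a stalled replication fork. The core complex is built from a module of FANCA and FANCG, a module of FANCB and the ubiquitin ligase FANCL, and a module of FANCC, FANCE and FANCF. With the E2 enzyme UBE2T it attaches ubiquitin to FANCD2 and FANCI, a paired clamp that then closes on DNA, and nucleases, translesion polymerases and homologous recombination complete the repair. Pladienolide B blocks recognition of the intron branch point by the U2 snRNP, and FANCF is the 1 member with no intron.

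Libraries held 56389689 to 67047079 counts, and FANC genes had from 37 to 6407 counts in a library. Levels are CPM, counts scaled to a common library total with TMM factors, given as mean ± SD of 3 libraries, and changes are log2 differences ± SE from edgeR, called at an adjusted p below 0.05. The median log2 change of all 20812 genes tested was -0.11 for PdB minus DMSO with TMM, -0.31 with library totals and 0.039 with upper-quartile factors, and changes are read against that level. The line's markers VIM, CD44 and AXL stood at 729 CPM or more in every library, while SPARC, another fixed marker, did not exceed 2.06 CPM. ESR1 was at 0 throughout, PGR did not exceed 0.0634 CPM, and ERBB2 lay between 49.1 and 110 CPM. Leukocyte genes (PTPRC, CD3E, CD14) did not exceed 1.01 CPM. Of the luminal markers, KRT8, KRT18 and EPCAM overlapped between at least 2 groups, and GATA3 stood at 44.4 to 46.8 CPM in PdB, 21.4 to 23.6 at recovery and 12.4 to 14 in DMSO. COL1A1, a fibroblast gene, stood at 2.04 to 3.10 CPM in PdB, 23.6 to 24.1 at recovery and 7.96 to 9.80 in DMSO, and PDGFRB at 9.44 CPM or less. The part of these in the FANC changes was not tested.

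Windows around the transcript start were read for 9 of the 10 genes, 10 windows in all because FANCC has a pair of starts (RefSeq, GRCh38.p14, 250 bases before to 50 after the start). FANCI had no entry. The pieces below are examples, and any part of sequence motifs in the FANC changes was not tested. On either strand, an E2F motif (TTTCCCGC, TTTGGCGC, TTTCGCGC or TTTGCCGC) was in windows of FANCA, FANCC and FANCD2, and in 3.31% of 35116 windows of all genes. No E2F motif was in the windows of FANCB, FANCE, FANCF, FANCG, FANCL or FANCM. CCAAT, the letters bound by NF-Y, was in windows of FANCA, FANCF and FANCM, and in 34.6% of all windows. Of these, only the FANCF pieces are printed. Capitals mark the motif and each line runs 5′ to 3′ on the strand of the gene.
FANCA, chr16:89816802-89816831, minus strand: gactacaccgcgGCGGCAAAgccaaacgca
FANCC, chr9:95317737-95317766, minus strand: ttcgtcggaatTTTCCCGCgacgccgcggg
FANCD2, chr3:10026424-10026453, plus strand: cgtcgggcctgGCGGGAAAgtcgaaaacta
FANCF, chr11:22625899-22625928, minus strand: acatgcatttcgaCCAATagcattgcagag
FANCF, chr11:22625864-22625893, minus strand: tatcatttcgcggatgttCCAATcagtacg

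PdB was set against DMSO to see how FANC transcripts stood at the end of treatment. Of the 10 genes, 8 fell, FANCF rose and FANCM was not called. Among all genes tested 70.1% were called in this comparison, 38.2% down and 32.0% up. For 9 of the 10 the PdB and DMSO libraries did not overlap, as for 72.5% of all genes. The median log2 change of the 10 genes was -1.17, against -0.11 over all genes tested. Summed over the family, PdB libraries held 181, 189 and 189 CPM and DMSO libraries 393, 405 and 394 CPM. In bulk RNA, fewer cells that express a gene and less of its RNA per cell cannot be told apart. At recovery against DMSO 1 member was higher, 7 were lower and 2 were not called, where 61.2% of all genes were called, 30.7% up and 30.5% down. For 9 the groups did not overlap, as for 70.4% of all genes. The median of the family was then -0.32, against 0.026 over all genes tested, and its summed level was 277, 274 and 281 CPM.

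**Figure D1:**
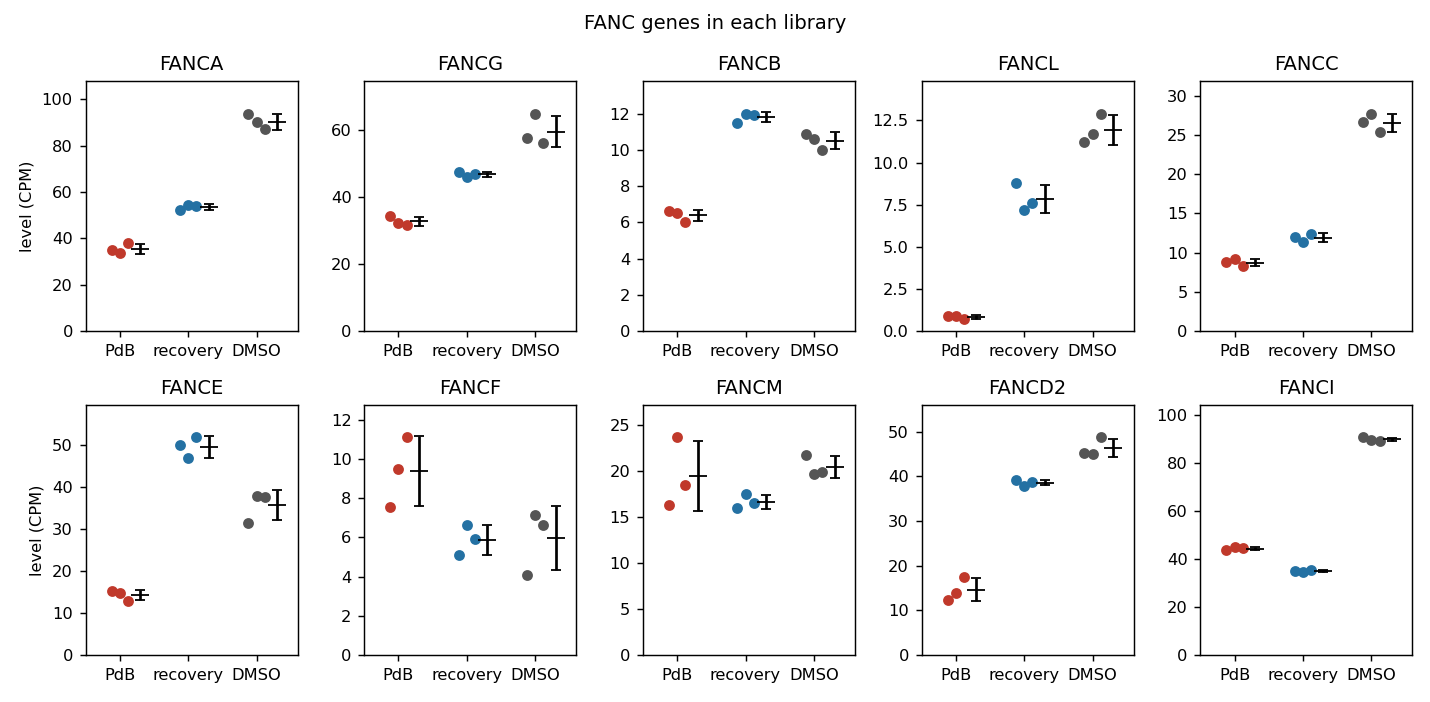
Levels in CPM (vertical axes, starting at 0) of the 10 FANC genes in each PdB, recovery and DMSO library; points are libraries and bars are mean ± SD, n = 3. FANCF is the member with its highest mean in PdB, FANCE and FANCB have theirs at recovery, and the others have theirs in DMSO.

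FANCA and FANCG form the module that carries the core complex to chromatin. Both fell under PdB and regained part of the level at recovery. FANCA (ENSG00000187741.15, GRCh38 chromosome 16, 89737549 to 89816657, 42 introns) was at 35.1, 33.7 and 38.0 CPM in PdB, 52.3, 54.5 and 53.9 CPM at recovery and 93.8, 90.3 and 87.0 CPM in DMSO. The 3 groups did not overlap. Its log2 change was -1.35 ± 0.061 for PdB minus DMSO (adjusted p = 5.4e-13) and -0.76 ± 0.059 for recovery minus DMSO (adjusted p = 2.6e-09). Over 2302 bases, 23.6% of the annotated exon length of FANCA, ZNF276 lies on the opposite strand, and ZNF276 averaged 4106 counts in PdB, 2003 at recovery and 2186 in DMSO. The use of strand in counting is not given in the sources used here, so reads of the shared stretch cannot be assigned. How much they alter the level of FANCA in each group is not known.

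FANCG (ENSG00000221829.10, chromosome 9, 35073835 to 35080016, 13 introns) was at 34.3, 32.3 and 31.8 CPM in PdB, 47.7, 46.2 and 46.9 CPM at recovery and 57.6, 65.0 and 56.3 CPM in DMSO. All groups were again separate, and the steps were smaller than those of FANCA. The log2 change was -0.86 ± 0.067 under PdB (adjusted p = 1.3e-09) and -0.35 ± 0.066 at recovery (adjusted p = 1.6e-04), both against DMSO.

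FANCL, the RING ligase that transfers ubiquitin to FANCD2, lost more of its level under PdB than any other member. In the 13-intron gene (ENSG00000115392.12, chromosome 2, 58159243 to 58241372), PdB libraries had 50, 51 and 37 counts, or 0.885, 0.906 and 0.711 CPM. Recovery libraries had 8.79, 7.16 and 7.63 CPM and DMSO libraries 11.2, 11.7 and 12.9 CPM. PdB thus held 6.98% of the DMSO mean and recovery 65.8%. The log2 change was -3.83 ± 0.16 for PdB minus DMSO (adjusted p = 1.9e-13), 3.23 ± 0.16 for recovery minus PdB (adjusted p = 3.0e-12) and -0.60 ± 0.13 for recovery minus DMSO (adjusted p = 5.3e-04). VRK2, on the opposite strand, shares 452 exonic bases with FANCL and averaged 552 counts in PdB, 1413 at recovery and 1320 in DMSO.

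FANCB, the scaffold that holds FANCL in the catalytic module, fell less. The gene (ENSG00000181544.15, chromosome X, 14835961 to 14873069, 9 introns) had 6.62, 6.50 and 6.05 CPM in PdB, 11.5, 12 and 11.9 CPM at recovery and 10.9, 10.6 and 9.98 CPM in DMSO. The change was -0.71 ± 0.11 under PdB (adjusted p = 8.4e-06). At recovery all 3 libraries lay above all DMSO libraries, but the log2 change of 0.17 ± 0.10 was not called (adjusted p = 0.17). Of the alternatives, library totals alone gave a call (0.24, adjusted p = 0.0499).

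The module of FANCC, FANCE and FANCF, which binds the FANCD2 side of the substrate, held 3 different courses. FANCC (ENSG00000158169.13, chromosome 9, 95099054 to 95426796, 14 introns), the member with the longest gene at 327.743 kb, stayed low. It had 8.76, 9.24 and 8.24 CPM in PdB, 12, 11.3 and 12.4 CPM at recovery and 26.6, 27.7 and 25.4 CPM in DMSO. Recovery libraries lay closer to PdB than to DMSO. The log2 change was -1.60 ± 0.091 under PdB (adjusted p = 1.4e-11) and -1.16 ± 0.088 at recovery (adjusted p = 1.8e-09).

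FANCE, the subunit that contacts FANCD2, fell and then exceeded DMSO. This gene (ENSG00000112039.5, chromosome 6, 35452356 to 35467103, 9 introns) was at 15.2, 14.7 and 12.9 CPM in PdB, 49.9, 46.8 and 51.8 CPM at recovery and 31.5, 37.8 and 37.7 CPM in DMSO. It was the 1 member lower under PdB and higher at recovery by the tests against DMSO, with log2 changes of -1.32 ± 0.088 (adjusted p = 1.5e-10) and 0.47 ± 0.084 (adjusted p = 7.6e-05). The step from the end of treatment was 1.79 ± 0.088 (recovery minus PdB, adjusted p = 2.7e-12).

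FANCF, the adaptor that ties this module to the rest of the core complex, rose under PdB. The single-exon gene (ENSG00000183161.6, chromosome 11, 22622890 to 22625841) had 7.54, 9.49 and 11.1 CPM in PdB, 5.10, 6.62 and 5.91 CPM at recovery and 4.09, 7.12 and 6.64 CPM in DMSO. PdB libraries lay above the others, with DMSO replicate 1 the lowest of all 9. Replicate 1 was also the lowest library within PdB and within recovery. The log2 change was 0.65 ± 0.19 for PdB minus DMSO (adjusted p = 0.0048; 1.4e-04 to 0.044 over the alternatives, and a change of 0.44 without DMSO replicate 1) and -0.67 ± 0.19 for recovery minus PdB (adjusted p = 0.0044). With library totals the second of these was -0.41 and was not called (adjusted p = 0.078). Recovery and DMSO overlapped (-0.016 ± 0.19, adjusted p = 0.95), an SE that leaves room for small changes in either direction. GAS2 shares 333 exonic bases on the opposite strand, with means of 8.67 to 20 counts by group.

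FANCM, the translocase that recognises the stalled fork, was not called under PdB. FANCM (ENSG00000187790.11, chromosome 14, 45135940 to 45200890, 22 introns) had 16.3, 23.7 and 18.5 CPM in PdB, 16.0, 17.5 and 16.6 CPM at recovery and 21.8, 19.7 and 19.9 CPM in DMSO. PdB replicate 2 stood above every other library, and the other 2 PdB libraries below all of DMSO. The log2 change was -0.068 ± 0.11 under PdB (adjusted p = 0.60) and -0.24 without PdB replicate 2 (adjusted p = 0.038). With library totals it was -0.27 (adjusted p = 0.047), and it turned positive with RLE or upper-quartile factors. At recovery FANCM was lower by -0.29 ± 0.11 (adjusted p = 0.029), which was no longer called under RLE factors, upper-quartile factors, library totals, DESeq2 or FDR 0.01, nor without any one of DMSO replicate 1, recovery replicate 1 and recovery replicate 3 (adjusted p up to 0.11). Recovery minus PdB was -0.23 ± 0.11 and not called (adjusted p = 0.085), but it was called at -0.28 to -0.34 with RLE or upper-quartile factors, an average of 50 counts or more or DESeq2, and without PdB replicate 1 (adjusted p 0.011 to 0.037).

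FANCD2 and FANCI, the paired substrate, both fell under PdB, to 31.5% and 49.4% of their DMSO means. From PdB to recovery they moved in opposite directions. FANCD2 (ENSG00000144554.13, chromosome 3, 10026414 to 10101930, 42 introns) was at 12.4, 13.9 and 17.4 CPM in PdB, 39.1, 37.9 and 38.6 CPM at recovery and 45.2, 45.0 and 48.7 CPM in DMSO. Recovery libraries reached 83.2% of the DMSO mean. The log2 change was -1.67 ± 0.096 under PdB (adjusted p = 1.8e-11) and 1.40 ± 0.096 for recovery minus PdB (adjusted p = 2.7e-10). Against DMSO the recovery change was -0.27 ± 0.091 (adjusted p = 0.017), which was not called with upper-quartile factors, library totals or FDR 0.01, nor without DMSO replicate 3 or without recovery replicate 2 (adjusted p up to 0.10). The pseudogene FANCD2P2 had a mean below 1 count in each group, and FANCD2OS, an overlapping gene on the opposite strand, a mean of 18.7 counts or less.

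FANCI (ENSG00000140525.19, chromosome 15, 89243949 to 89317261, 37 introns) had 43.7, 44.9 and 44.6 CPM in PdB, 34.9, 34.5 and 35.3 CPM at recovery and 90.8, 89.6 and 89.4 CPM in DMSO. It was called lower at recovery than in PdB. The change was -1.02 ± 0.053 under PdB (adjusted p = 4.7e-12), -1.37 ± 0.054 at recovery against DMSO (adjusted p = 3.2e-13) and -0.35 ± 0.054 for recovery minus PdB (adjusted p = 1.6e-05). With library totals the last value was -0.079 and was not called (adjusted p = 0.21). POLG shares 458 exonic bases on the opposite strand, and its mean count was 7110 in PdB, 6577 at recovery and 5864 in DMSO.

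Between the end of treatment and recovery, 7 members were higher at recovery, FANCF and FANCI were lower, and FANCM was not called, where 66.1% of all genes were called, 34.6% up and 31.5% down. For 9 the groups did not overlap, as for 70.5% of all genes. In PdB minus DMSO and recovery minus DMSO, read in turn, 6 members were lower in both (FANCA, FANCC, FANCD2, FANCG, FANCI and FANCL), FANCB and FANCF were called in PdB and not at recovery, and FANCE changed sides. These comparisons share libraries, so their values are given side by side and not correlated. Taken singly, 38.2% of all genes were called down in PdB minus DMSO and 30.5% in recovery minus DMSO. The share of all genes with the same pair of calls was not counted, so the courses of the members are descriptions only.

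Levels of different genes were compared per length, as CPM per kilobase of annotated exon. In PdB the order ran from FANCG at 9.08 ± 0.357 through FANCI at 5.72 ± 0.0837 and FANCE at 5.30 ± 0.461 to FANCC at 0.683 ± 0.0388 and FANCL at 0.346 ± 0.0444. At recovery FANCE led with 18.4 ± 0.934, followed by FANCG at 13.0 ± 0.217, and FANCC was last at 0.928 ± 0.0448. In DMSO FANCG was first at 16.5 ± 1.3 and FANCF last at 2.02 ± 0.553, with FANCE at 13.2 ± 1.35 and FANCI at 11.6 ± 0.0935 between them. FANCF, last of 10 in DMSO, had rank 5 in PdB.

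Some neighbours in these orders overlapped between libraries. In PdB they were FANCI with FANCE, FANCA with FANCF, FANCF with FANCM, and FANCB with FANCD2. At recovery they were FANCD2 with FANCI, FANCB with FANCL, and FANCF with FANCM, and in DMSO FANCE with FANCI and FANCC with FANCF. The order depends on the length used. Per kilobase of the longest coding transcript, FANCE had rank 4 in DMSO and not 2, and FANCC rank 7 and not 9. At recovery FANCF, not FANCC, was then last, and FANCC had rank 8.

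**Figure D2:**
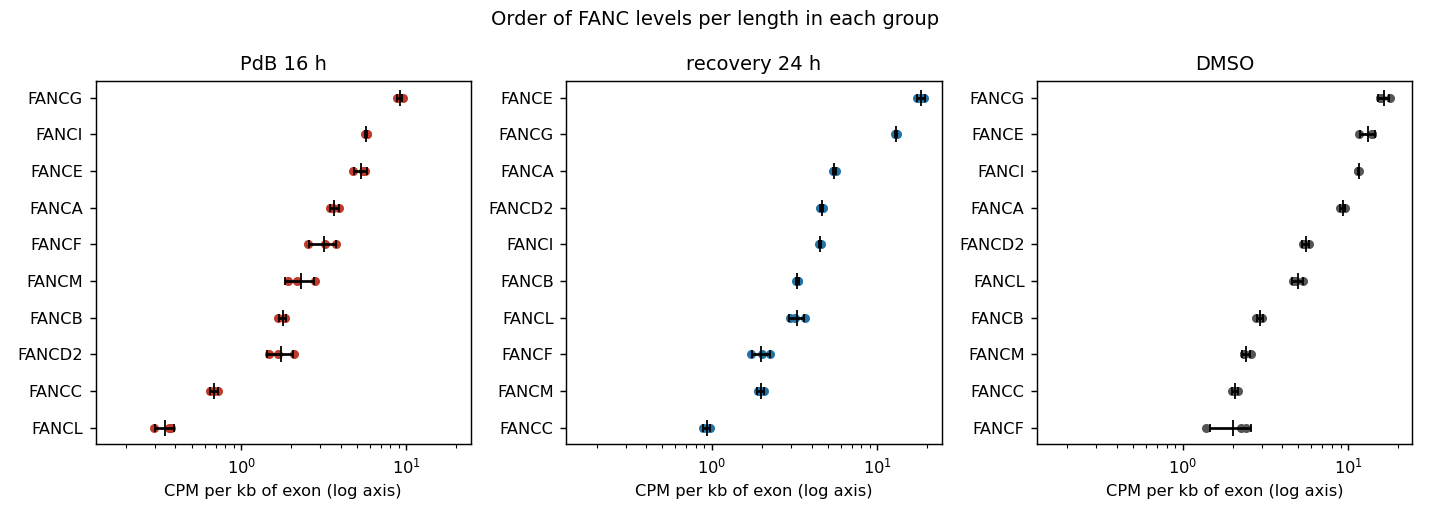
CPM per kilobase of annotated exon (horizontal log axes) of the FANC genes, ordered by mean within PdB, recovery and DMSO; points are libraries and bars mean ± SD, n = 3. FANCG leads in PdB and DMSO, FANCE at recovery, and FANCL is last in PdB.

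Ratios of partners within a library do not depend on how libraries are scaled. Per length, FANCD2 stood at 0.264, 0.288 and 0.362 of FANCI in PdB, 1.04, 1.02 and 1.01 at recovery and 0.462, 0.466 and 0.504 in DMSO. The ratio was 3.39-fold higher at recovery than in PdB and 2.14-fold higher at recovery than in DMSO. In the module of FANCC, FANCE and FANCF, FANCE stood at 7.43 to 8.27 times FANCC in PdB, 19.8 to 19.9 times at recovery and 5.64 to 7.06 times in DMSO. FANCF stood at 3.73 to 5.83 times FANCC in PdB, 1.84 to 2.55 times at recovery and 0.667 to 1.13 times in DMSO. These values use merged exon length, which for FANCC is 12809 bases against 4592 in its longest coding transcript. Per length of that transcript FANCF stood at 1.34 to 2.1 times FANCC in PdB, 0.661 to 0.911 at recovery and 0.239 to 0.407 in DMSO, so at recovery the order turns. FANCE then stood at 2.81 to 3.12 times FANCC in PdB, 7.45 to 7.51 at recovery and 2.13 to 2.67 in DMSO. Fold differences of a ratio between groups do not depend on length.

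In the catalytic module FANCB stood at 4.82 to 5.72 times FANCL in PdB, 0.877 to 1.12 at recovery and 0.519 to 0.650 in DMSO. Over the 3 groups together FANCG to FANCA moved least, at 2.26 to 2.63 in PdB, 2.28 to 2.46 at recovery and 1.65 to 1.94 in DMSO. Between PdB and DMSO alone FANCE to FANCC moved less, 1.22-fold against 1.4-fold for FANCG to FANCA. Groups of 3 cannot give an exact two-sided permutation p below 0.1. Of 18 exact permutation tests over 6 pairs, 16 gave that p of 0.1 (0.11 after Benjamini-Hochberg adjustment). That p means only that the ratios did not overlap between groups, and for 70.4% to 72.5% of single genes the groups did not overlap either. The pairs were picked after the values were seen, and the share of other gene pairs at that p was not counted. The exact p was 0.2 for FANCF to FANCE at recovery against DMSO and 0.4 for FANCG to FANCA at recovery against PdB (adjusted 0.21 and 0.40).

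**Figure D3:**
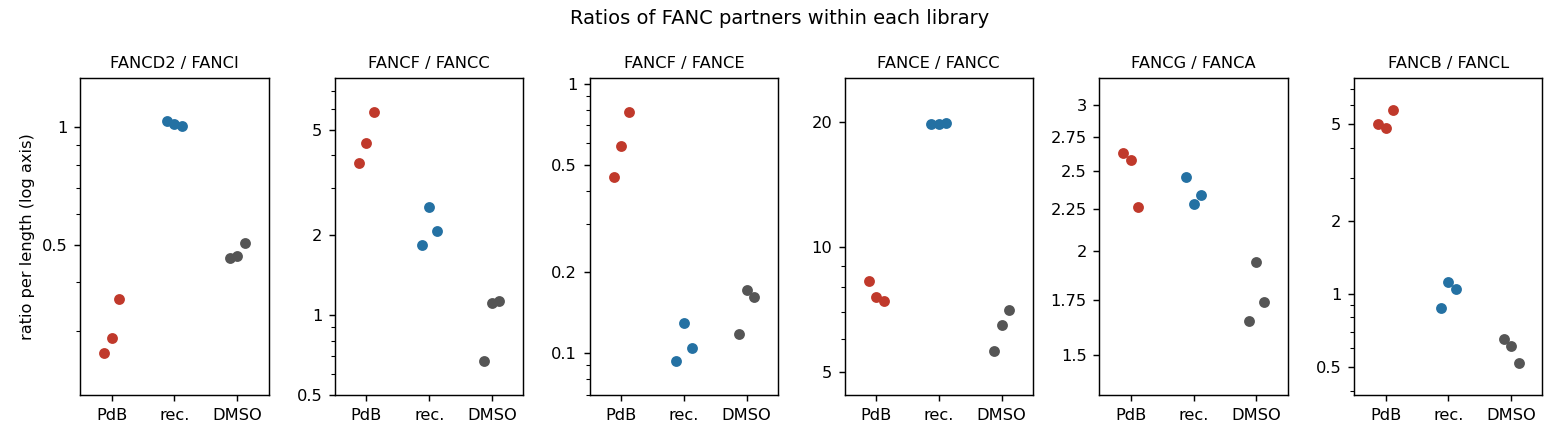
Ratio of the CPM per kilobase of one FANC gene to that of a partner within each PdB, recovery (rec.) and DMSO library (vertical log axes); each point is 1 library. FANCD2 to FANCI is lowest in PdB and near 1 at recovery, and FANCB to FANCL is highest in PdB.

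FANC genes differ in the number of introns, a feature the list of names did not use beyond FANCF. Among 377 tested protein-coding genes without introns, the median log2 change for PdB minus DMSO was 0.96, with 64.2% called up, and FANCF at 0.65 lay at percentile 39.8 of that class. Among 3507 genes with 11 to 20 introns the median was -0.59 and 60.9% were called down. There FANCG lay at percentile 39.6, FANCC at 18.2 and FANCL at 0.827. In the class of more than 20 introns (1667 genes, median -0.91, 72.1% called down), FANCI lay at 45.6, FANCA at 33.4 and FANCD2 at 21.9. FANCM, of the same class, lay at 81.0.

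FANCB and FANCE, with 9 introns each, lay at percentiles 33.5 and 17.8 of 3776 genes with 6 to 10 introns, whose median was -0.20. At recovery against DMSO, FANCA at 35.5, FANCC at 13.5, FANCG at 42.1 and FANCF at 35.3 lay within 5 percentile points of their places under PdB. FANCM lay at 56 and FANCB at 61.0. FANCI lay at percentile 13.7 and FANCD2 at 57.8 of genes with more than 20 introns. FANCL lay at 31.5 of those with 11 to 20, and FANCE at 74.0 of those with 6 to 10. Genes are not independent replicates and these places are descriptions. Counts per gene do not measure splicing.

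**Figure D4:**
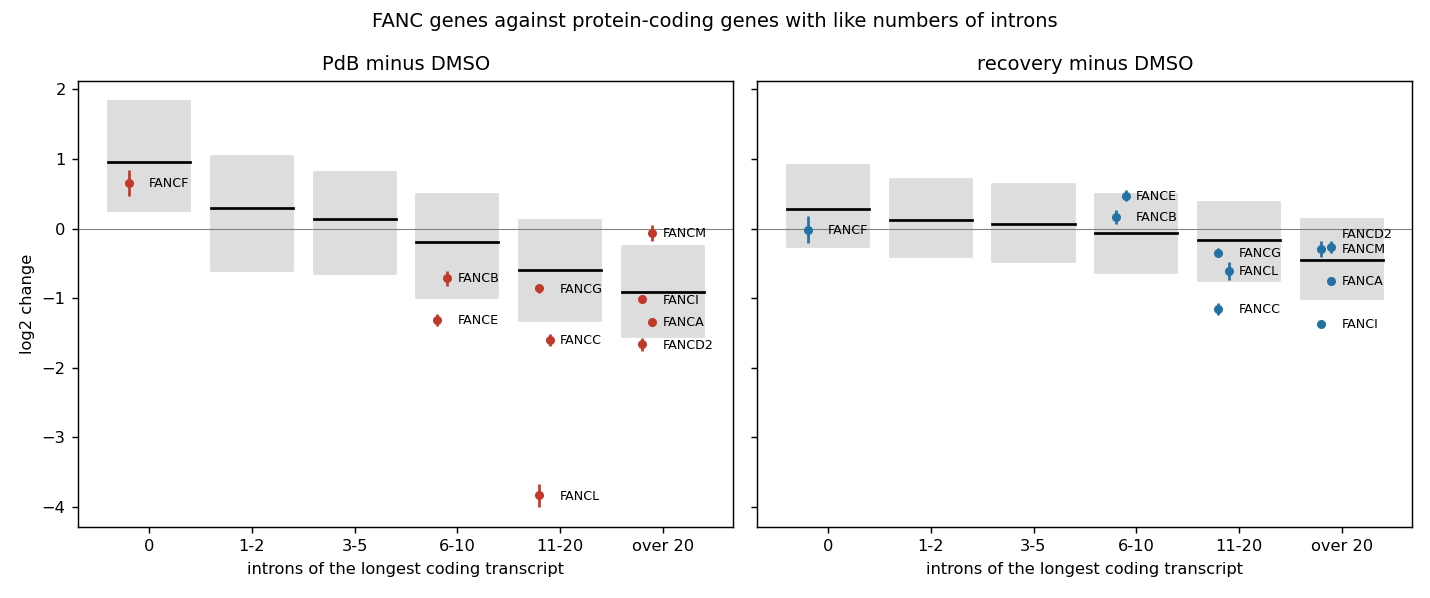
Log2 change (vertical axis) of FANC genes, points ± SE, by the number of introns of their longest coding transcript, for PdB minus DMSO and recovery minus DMSO; grey boxes are the quartiles and black lines the medians of all tested protein-coding genes of that class. Under PdB FANCL lies far below its class, while FANCF lies inside the box of genes without introns.

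Of 32 further Fanconi pathway genes, listed by role, 31 could be tested; SLX1B could not, and it shares near-identical sequence with SLX1A. For PdB minus DMSO 7 rose, 21 fell and 3 were not called, with a median log2 change of -0.41. At recovery against DMSO 7 were higher and 15 lower, with a median of -0.18. Over all genes tested 32.0% were called up and 38.2% down in PdB, and 30.7% up and 30.5% down at recovery. Of 5 core complex partners, 2 rose and 3 fell under PdB. FAAP20, which binds FANCA, rose to 56 ± 1.51 CPM in PdB and was at 31.3 ± 1.26 CPM at recovery, against 27.3 ± 0.983 CPM in DMSO (log2 change 1.04 ± 0.065 for PdB minus DMSO).

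FAAP100, the third part of the catalytic module, had 59.0 ± 0.310 CPM in PdB, 20.3 ± 1.05 CPM at recovery and 65.3 ± 2.93 CPM in DMSO. Its change was -1.69 ± 0.063 at recovery (adjusted p = 1.8e-13). Under PdB it was -0.15 ± 0.061 (adjusted p = 0.040), which was not called under RLE factors and became 0.0042 under upper-quartile factors. Nor was it called with DESeq2, at FDR 0.01, for an average of 50 counts or more or with only the 6 libraries compared, or without any one of DMSO replicate 2, PdB replicate 1 and PdB replicate 2. FAAP24, the partner of FANCM, had 1.89 ± 0.413 CPM in PdB, 11.2 ± 0.775 CPM at recovery and 4.47 ± 0.348 CPM in DMSO. It fell by 1.24 ± 0.17 under PdB and rose by 1.32 ± 0.15 at recovery, on the log2 scale against DMSO.

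UBE2T, the E2 enzyme that works with FANCL, was lower in both comparisons with DMSO. Its level was 30.1 ± 0.846 CPM in PdB, 37.2 ± 1.21 CPM at recovery and 55.7 ± 3.34 CPM in DMSO. Removal of ubiquitin from FANCD2 and FANCI rests on USP1 and its activator WDR48, and these moved in opposite directions under PdB. USP1 had 172 ± 14 CPM in PdB and 137 ± 6.79 CPM in DMSO (log2 change 0.33 ± 0.061). WDR48 had 10.1 ± 0.670 CPM in PdB, 54.9 ± 1.37 CPM at recovery and 33.8 ± 1.31 CPM in DMSO, with changes against DMSO of -1.75 ± 0.074 in PdB and 0.70 ± 0.069 at recovery. ATAD5, which directs the enzyme to its other substrate on chromatin, PCNA, changed by -1.13 ± 0.088 under PdB and was not called at recovery (-0.10 ± 0.085, adjusted p = 0.31).

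Among genes that sense crosslinks or act as ligases in their repair, UHRF1 fell to 51.7 ± 3.08 CPM in PdB, against 293 ± 12.7 CPM in DMSO. RFWD3, a ubiquitin ligase, was at 29.9 ± 0.929 CPM in PdB, 132 ± 5.15 CPM at recovery and 91.3 ± 1.29 CPM in DMSO, lower and then higher than DMSO. Of 9 tested genes listed under nucleases and unhooking of crosslinks, 2 rose and 5 fell under PdB. Among all genes tested 32.0% were called up and 38.2% down. DCLRE1B, an exonuclease, rose by 1.28 ± 0.066 and ERCC4, a subunit of the nuclease that unhooks crosslinks, by 0.94 ± 0.095, while MUS81 fell by 1.40 ± 0.070 on the log2 scale. At recovery against DMSO, ERCC4 was lower (-0.54 ± 0.097, adjusted p = 9.5e-05), MUS81 was lower (-0.62 ± 0.068) and DCLRE1B was higher (0.42 ± 0.066).

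Of 4 translesion synthesis genes, 2 rose and 2 fell under PdB, where 32.0% of all genes tested were called up and 38.2% down. The second fall, of REV3L (-0.23 ± 0.094, adjusted p = 0.037), was lost with RLE or upper-quartile factors, an average of 50 counts or more, DESeq2, FDR 0.01 or only the 6 libraries compared, and without DMSO replicate 1 or PdB replicate 1, while library totals left 1 rise. POLN, a polymerase, had a log2 change of 1.06 ± 0.10, and MAD2L2, a subunit of polymerase zeta, fell in both comparisons, by 0.34 ± 0.075 under PdB and 0.96 ± 0.076 at recovery. Of 7 homologous recombination genes of the pathway, 0 rose and 6 fell under PdB by edgeR, beside the same shares of all genes. At an unadjusted p below 0.05 or by DESeq2, 0 rose as well. For recovery minus DMSO 1 was higher, 4 were lower and 2 were not called, where 30.7% of all genes were called up and 30.5% down. The number higher was 2 in 9 of the 18 other settings. BRIP1, a helicase, stayed low, with 21.7 ± 2.24 CPM in PdB, 21.0 ± 0.974 CPM at recovery and 54.1 ± 3.57 CPM in DMSO. XRCC2, a recombination mediator, was lower under PdB (-0.68 ± 0.091) and higher at recovery (0.37 ± 0.089, adjusted p = 0.0016).

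**Figure D5:**
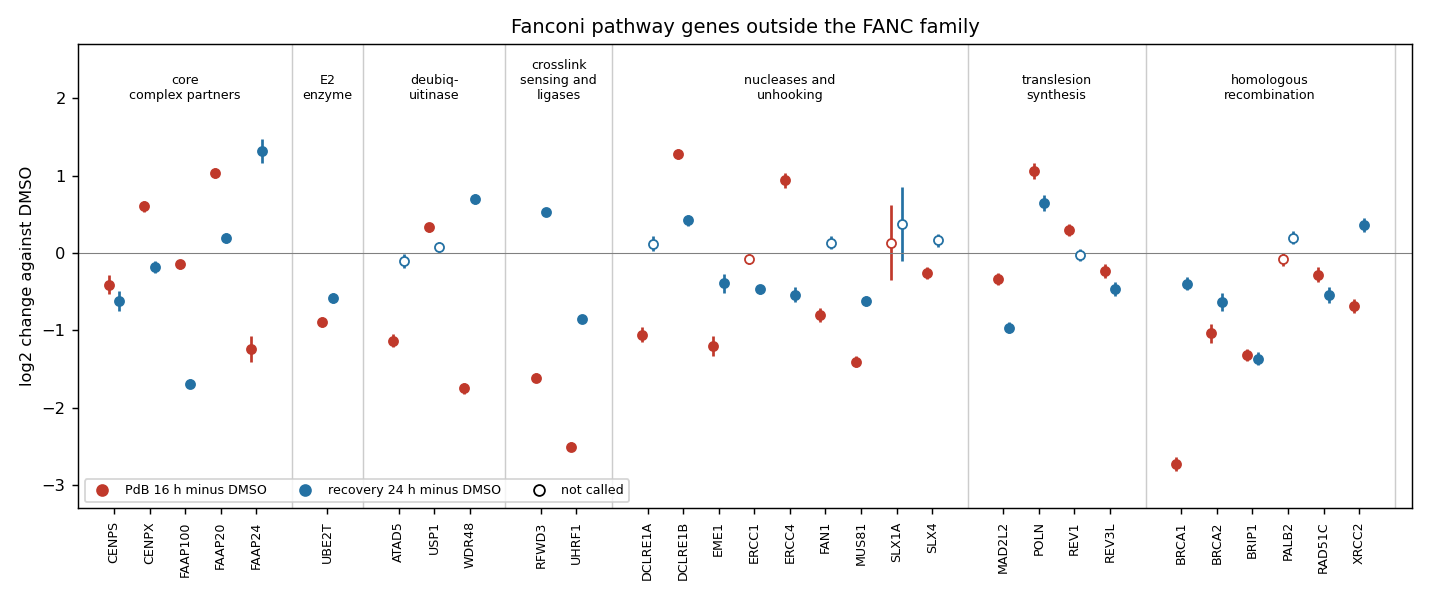
Log2 change against DMSO (vertical axis, ± SE) of tested Fanconi pathway genes outside the FANC family, grouped by role, for PdB (left point of each gene) and recovery (right point); open points were not called. FAAP24, WDR48, RFWD3 and XRCC2 are lower under PdB and higher at recovery. ERCC4 and CENPX are higher under PdB and lower at recovery, the latter at an adjusted p of 0.047 by edgeR.

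Genes of S phase moved with the groups as well. Of 18 listed, 17 fell and 1 was not called under PdB (median log2 change -1.36), and at recovery 15 were lower and 3 not called (median -0.78). Of all genes tested 38.2% were called down in PdB and 30.5% at recovery. By edgeR 0 rose in either comparison, as at an unadjusted p below 0.05, while DESeq2 called 1 higher in PdB. Their summed level ran from 1458 to 1513 CPM in PdB, 1836 to 1905 CPM at recovery and 3068 to 3183 CPM in DMSO. MCM2, of the replicative helicase, had 73.6 ± 0.952 CPM in PdB, 152 ± 2.77 CPM at recovery and 183 ± 10.9 CPM in DMSO. PCNA, the sliding clamp, had 18.2 ± 1.26 CPM in PdB, 124 ± 3.37 CPM at recovery and 156 ± 4.96 CPM in DMSO. The part of cell cycle stage in the FANC changes was not tested.

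A search of 12020 protein-coding genes, each averaging 100 counts or more, used the Euclidean distance of centred log2 CPM over the 9 libraries. Most like FANCF were ELOB (0.570), RPS27 (0.573) and NDUFB4 (0.579). These 3 genes have 2, 3 and 1 introns. NDUFB4 was at 57.4 ± 2.04 CPM in PdB, 35.2 ± 3.19 CPM at recovery and 36.7 ± 3.26 CPM in DMSO. For FANCD2 the nearest were LYPLA1 (0.176), CCNC (0.247) and COQ7 (0.251). LYPLA1 was at 12.7 ± 2.04 CPM in PdB, 35.2 ± 1.76 CPM at recovery and 40.1 ± 1.55 CPM in DMSO.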

How the data were processed

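The authors deposited whole-number read counts for 60708 genes in 9 polyadenylated-RNA libraries, not normalised. Tools named in the submitters' processing notes are fastp 0.23.2, featureCounts 2.0.3, STAR 2.7.9a, DESeq2 1.30.0 and Picard, with hg38. How counting treated strand, duplicates and multi-mapping reads, and its annotation, is not given in the sources used here. Overlapping genes may therefore share reads. Members were matched by Ensembl ID. Gene models came from GENCODE 29 (GRCh38).

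After filterByExpr, 20812 genes were tested two-sided over all 9 libraries with edgeR 4.0.16 in R 4.3.3 (quasi-likelihood, Benjamini-Hochberg over all genes tested, 0.05). TMM factors averaged 0.898 in PdB, 1.08 at recovery and 1.03 in DMSO. The scripts were tested on simulated data. Totals, from 56389689 to 67047079 counts, set the precision for counting error only. Libraries of one group differed beyond counting noise (chi-square per degree of freedom 4.88 to 24.5). Samples were not paired by replicate number. Other settings were scaling by RLE, by upper quartile or by library totals, DESeq2 1.42.0, dropping the filter, requiring an average of 50 counts, FDR 0.01, fitting the 6 libraries compared, a replicate block, and leaving out each library. Distances used log2(CPM + 0.1).

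The members and lists were chosen with earlier results of these data known. Named genes were all FANC genes, genes of the role lists, MCM2 and PCNA, and the 3 genes nearest to FANCF and to FANCD2. A few listed genes are counted but not reported by name here. The 6 partner ratios, their values per transcript length and the motif search were added after the values were seen. SciPy 1.17.1 gave the exact permutation tests.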

Additional observations from a re-analysis of the deposited data

How the results depend on the processing

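The 30 FANC log2 changes (10 genes, 3 comparisons) were recomputed under 18 alternatives each. Of 540 values, 501 kept direction and side of the threshold, 15 lost the call, 8 gained one and 16 changed sign, the last in values of FANCF and FANCM that were not called. FANCF for recovery minus DMSO became 0.028 with RLE factors, 0.061 with upper-quartile factors, 0.055 with library totals, 0.023 for a mean of at least 50 counts, 0.028 with DESeq2 and 0.0084 with the replicate block, and ran from -0.23 to 0.13 with 1 library left out. FANCM for PdB minus DMSO became 0.028 with RLE factors, 0.081 with upper-quartile factors, 0.055 for a mean of at least 50 counts, 0.028 with DESeq2 and 0.0085 with only the 6 libraries compared, and ran from -0.24 to 0.043 with 1 left out. FANCM for recovery minus PdB was 0.041 with library totals, and was called at -0.28 to -0.34 in 5 settings (adjusted p 0.011 to 0.037). FAAP100 for PdB minus DMSO was 0.0042 with upper-quartile factors. The counts of FANC genes called stayed within 1.5 times except with library totals, which gave 2 up for recovery minus DMSO (FANCB joining FANCE) and 0 down for recovery minus PdB. Library totals also gave 6 other pathway genes and 2 S-phase genes down for recovery minus PdB, and 1 S-phase gene up for recovery minus DMSO. Upper-quartile factors gave 11 other pathway genes up for recovery minus DMSO and 1 S-phase gene up for PdB minus DMSO and for recovery minus DMSO, and 1 S-phase gene was up for PdB minus DMSO with a mean of at least 50 counts and with DESeq2. With all libraries kept, the numbers called among all genes moved with the settings too. For recovery minus DMSO 5352 to 6998 were up, and for recovery minus PdB 4876 to 7021 were down. For PdB minus DMSO 5579 to 7510 were up. The cause was not tested. Same-numbered libraries of different groups deviated together with r between -0.0032 and 0.048, each under the 0.1 asked of a pairing. In 13 of 18 cases the own number gave the highest r, where chance gives 6, a hint from the data and not the design that numbers may share something. With the replicate block 1 FANC gene was up and 8 were down for PdB minus DMSO, as without it. Depth limits FANCL in PdB, at 37 to 51 counts.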
